A study of Mus musculus with 3 samples.

Results

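The 56 genes described here carry the names of eukaryotic translation initiation factors. They include factor subunits, regulators such as the eIF2 kinases and the eIF4E binding proteins, and a pair named for similarity (Eif1ad and Eif4a3l1). They are the protein-coding genes of the RefSeq mm10 table whose symbol starts with Eif and a digit from 1 to 6, out of 21900 protein-coding genes in all. They fall by symbol into an eIF2, an eIF3 and an eIF4 group and a rest of eIF1, eIF5 and eIF6 genes. The rule uses symbols and no measured value, but the set was chosen with earlier results of these data known. Chromatin sites of the retinoid X receptor RXRA were mapped by CUT&RUN, in which nuclease tethered by an antibody cuts the DNA around the bound protein and the freed fragments are sequenced. For the HSC library 10000 haematopoietic stem cells were used, sorted as Lin-cKit+Sca1+CD48-CD150+. The 2 MPP libraries, called MPP rep1 and MPP rep2, came from 50000 multipotent progenitors each, sorted as Lin-cKit+Sca1+CD150-, and the labels do not say whether they share a pool of mice. Both cell types were taken from bone marrow of C57BL/6 mice aged about 10 months, pooled from 3 or 4 animals, and all 3 libraries were exposed to the RXR agonist bexarotene, which the labels give as 1 mM for 1 h. The genotype is labelled VavCre+; WT and the mice Rxrabfl/fl (WT), so a Cre driven in blood cells and floxed alleles are named for every library, and both labels call the animals wild type. A library without bexarotene, a library without RXRA and a library with a control antibody were not analysed here.

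Translation initiation brings the initiator tRNA, the small ribosomal subunit and the mRNA together. eIF2 carries the initiator tRNA with GTP, eIF2B recharges eIF2 with GTP, and stress kinases that phosphorylate eIF2 turn it into an inhibitor of eIF2B. eIF3 is the large scaffold on the small subunit, and eIF4E, eIF4G and eIF4A bind the mRNA cap, bridge it to the ribosome and unwind the leader. Blood stem cells are known for a low rate of protein synthesis, and MYC is known to activate genes of the translation machinery.

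A gene was scored as marked where a peak of a library's own list overlapped the window of 1 kb around either end of the gene. The initiation factor genes were marked more often than protein-coding genes as a whole in each library. In HSC 10 of 56 members were marked (17.9%), against 8.21% of all genes. In MPP rep1, 34 members were marked (60.7%), against 41.2% of all genes. In MPP rep2, 39 members were marked (69.6%), against 36.0% of all genes. Both MPP libraries marked 29 members (51.8%), against 28.9% of all genes, and all 3 libraries marked 7 members (12.5%), against 5.83% of all genes. With a single HSC library there is no replicate of that cell type, so no test between cell types or between complexes was made, and the counts describe these libraries. The HSC count also depends on the peak threshold, since of its 10 members only Eif2ak3 has a peak with q at or below 1e-05.

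The 7 members marked in all 3 libraries were Eif2b1, Eif2b4, Eif2b5, Eif3a, Eif4a1, Eif4a3 and Eif4g2. The next 6 sequences are those of them whose HSC peak covers the gene start. They are shown so that the DNA just before the start under those peaks can be read. Each is the 250 bases before a listed start of transcription, 5′ to 3′ on the gene's strand, from RefSeq GRCm38.p6. They lie at chr11:119300044-119300293 (minus strand) for Eif4a3, chr5:31193140-31193389 (minus) for Eif2b4, chr16:20498567-20498816 (plus) for Eif2b5, chr11:69672424-69672673 (minus) for Eif4a1, chr19:60790694-60790943 (minus) for Eif3a and chr5:124579132-124579381 (minus) for Eif2b1. Capitals mark matches, on either strand, to the 10 motifs named in the next paragraph. The seventh gene, Eif4g2, has no listed promoter in the table used.
Eif4a3: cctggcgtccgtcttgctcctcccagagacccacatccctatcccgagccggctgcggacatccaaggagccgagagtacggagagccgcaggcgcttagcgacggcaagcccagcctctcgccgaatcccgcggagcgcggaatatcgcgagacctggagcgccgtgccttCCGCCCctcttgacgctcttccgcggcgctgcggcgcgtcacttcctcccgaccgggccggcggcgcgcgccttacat
Eif2b4: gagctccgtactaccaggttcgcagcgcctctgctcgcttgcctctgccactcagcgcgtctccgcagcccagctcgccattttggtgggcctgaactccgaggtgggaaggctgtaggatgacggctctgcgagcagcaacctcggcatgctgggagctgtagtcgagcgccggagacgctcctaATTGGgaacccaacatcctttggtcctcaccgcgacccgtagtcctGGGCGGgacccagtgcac
Eif2b5: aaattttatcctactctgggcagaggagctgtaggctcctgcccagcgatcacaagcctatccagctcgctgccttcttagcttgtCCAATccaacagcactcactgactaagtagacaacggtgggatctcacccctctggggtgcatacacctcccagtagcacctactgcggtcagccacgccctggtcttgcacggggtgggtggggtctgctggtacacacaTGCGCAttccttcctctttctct
Eif4a1: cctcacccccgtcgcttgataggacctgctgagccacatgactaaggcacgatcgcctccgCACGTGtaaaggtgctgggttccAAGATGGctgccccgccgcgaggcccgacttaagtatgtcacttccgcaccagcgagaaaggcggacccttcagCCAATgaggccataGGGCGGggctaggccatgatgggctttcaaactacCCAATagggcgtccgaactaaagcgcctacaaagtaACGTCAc
Eif3a: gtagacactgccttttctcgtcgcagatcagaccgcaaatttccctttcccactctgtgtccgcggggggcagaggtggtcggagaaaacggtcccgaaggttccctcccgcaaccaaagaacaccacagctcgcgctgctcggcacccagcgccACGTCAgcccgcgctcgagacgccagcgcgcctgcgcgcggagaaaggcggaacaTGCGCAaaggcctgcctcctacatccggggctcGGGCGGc
Eif2b1: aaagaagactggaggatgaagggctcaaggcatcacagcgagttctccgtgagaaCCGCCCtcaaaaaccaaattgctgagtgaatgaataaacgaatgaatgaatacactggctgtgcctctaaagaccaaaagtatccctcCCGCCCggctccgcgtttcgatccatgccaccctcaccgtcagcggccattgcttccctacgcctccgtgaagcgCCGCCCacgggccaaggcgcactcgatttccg

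The motifs searched on both strands were CACGTG (the E-box that MYC and MAX bind), AGGTCA (the core of nuclear receptor sites), that core repeated with 1 base between the copies (DR1, the classic RXR spacing) or with 4 bases (DR4), CCGGAAG (ETS factors), CCAAT (NF-Y), GGGCGG (SP and KLF factors), TGACGT (part of the CRE), TGCGCA (part of the NRF1 site) and AAGATGG (YY1). DR1 and DR4 contain AGGTCA, and the others do not contain each other. None of the 6 printed sequences holds AGGTCA, DR1, DR4 or CCGGAAG. Over all promoters each was present in 12.5% or fewer, so 0 of 6 is no departure. The Eif4a1 sequence holds the only E-box, with its first base 189 bases before the start, beside copies of CCAAT that begin 92 and 43 bases before it. GGGCGG is found in 5 of the 6, with 3 copies in Eif2b1 that begin 195, 107 and 32 bases before the start. The HSC peaks cover all 250 bases shown for Eif4a3 and Eif3a, 237 for Eif4a1, 184 for Eif2b5, 148 for Eif2b4 and 141 for Eif2b1. The HSC summits of Eif2b4, Eif4a1 and Eif3a lie 54, 26 and 17 bp inside the start, outside the printed bases.

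Over the 44 members with a listed promoter, AGGTCA was present in 2 (4.55%), against 12.5% of 17486 protein-coding promoters of the same length. These 2 were Eif2s3x and Eif4enif1. DR1 was present in 0 of 44 members and in 0.0458% of all promoters, and DR4 in neither set. The E-box was present in 7 members (15.9%), against 6.66% of all promoters, and they were Eif1b, Eif3f, Eif3k, Eif4a1, Eif4g1, Eif4h and Eif5a2. Of these only Eif4a1 was marked in HSC. GGGCGG was present in 31 members (70.5%, against 42.7%), CCGGAAG in 10 (22.7%, against 9.15%) and TGCGCA in 9 (20.5%, against 8.30%). TGACGT was present in 7 (15.9%, against 7.53%), CCAAT in 13 (29.5%, against 36.5%) and AAGATGG in 2 (4.55%, against 4.08%). A match is a description of the letters and not a bound site. Every motif at a clearly higher share in members, the E-box included, contains a CpG. The motifs without a CpG were at similar or lower shares in members. Motifs were not compared with promoters of like CpG content, so whether any higher share is particular to the members was not tested.

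Member promoters were richer in CpG than most, with a median of 18.5 CpG in 250 bases, against 10.0 over all promoters. Among promoters at or above the members' median, 18.2% of 22 members had a peak within 1 kb of the gene start in HSC, against 14.0% of 4476 promoters of all genes. In that class the share was 63.6% of members against 58.2% in MPP rep1, and 68.2% against 57.0% in MPP rep2. Below the median the shares were 22.7% of members against 6.00% of all genes in HSC, 59.1% against 32.2% in MPP rep1 and 81.8% against 27.8% in MPP rep2. The part of base composition in the members' counts of peaks and of motifs was not tested.

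The plot of the strongest gene-end peak for every member shows the pattern over the 4 groups. No member was marked in HSC alone (against 0.297% of all genes), and none in HSC and MPP rep1 without MPP rep2 (against 0.338%). With shares of all genes this low, 0 of 56 members is no departure from them. The other HSC-marked members, Eif2ak3, Eif2s1 and Eif5a, were marked in HSC and MPP rep2 (5.36%, against 1.74% of all genes). Both MPP libraries without HSC marked 22 members (39.3%, against 23.1% of all genes). MPP rep1 alone marked Eif1b, Eif3g, Eif3i, Eif4a2 and Eif4b, and MPP rep2 alone marked Eif1a, Eif1ad, Eif1ax, Eif2s3x, Eif3f, Eif3k and Eif4e. The remaining 12 members (21.4%, against 51.4% of all genes) had no gene-end peak in any library.

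**Figure D1:**
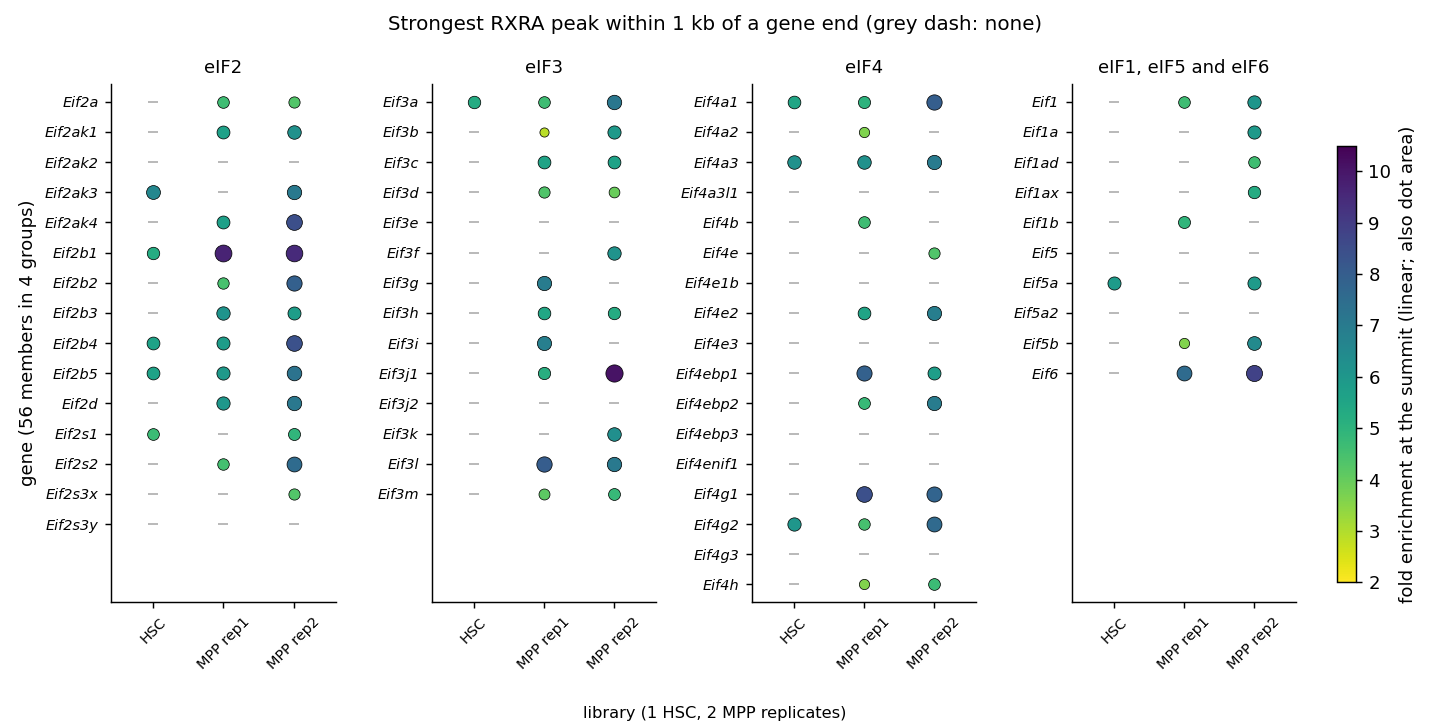
Fold enrichment at the summit of the strongest peak within 1 kb of a gene end, for each of the 56 members (rows, in 4 groups) in HSC, MPP rep1 and MPP rep2 (columns). Dot area and colour give the authors' fold on a linear scale and a dash stands for no peak; the HSC column holds 10 dots, with folds of 4.71 to 6.57.

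The authors' fold enrichment is the ratio of the fragments piled up at a summit to the local background of the same library, with 1 added to each. At few fragments the added 1 lowers the fold, and folds are compared within a library only. The marked members' strongest peaks had a median fold of 5.61 in HSC, against 5.50 over all HSC peaks. The medians were 5.30 against 4.39 in MPP rep1, and 6.29 against 5.65 in MPP rep2. All protein-coding genes with a gene-end peak had medians of 5.50 in HSC, 4.86 in MPP rep1 and 6.14 in MPP rep2, so the marked members lay close to other marked genes.

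The HSC list is the shallowest. It holds 4047 peaks, against 29848 in MPP rep1 and 19570 in MPP rep2, and no total read count was analysed here. Pileups, solved from each peak's deposited fold and p, were 8 to 11 fragments at the members' HSC peaks (median 8.5), against 12 to 43 in MPP rep1 (median 20) and 8 to 28 in MPP rep2 (median 15.5). The lowest local background was 0.604 fragments in HSC, 2.87 in MPP rep1 and 1.08 in MPP rep2. A member without an HSC peak is therefore one not detected in this library. Depth, cell number and an absence of binding cannot be told apart. Among 10 marker genes of HSC and MPP, 0 were marked in HSC, 6 in MPP rep1 (60.0%) and 3 in MPP rep2 (30.0%). The shares of all genes are 8.21%, 41.2% and 36.0%, so 0 of 10 in HSC is no departure. Flt3, Kit and Hlf were marked in both MPP libraries. These few genes do not check the identity of the cells, and the same shares apply to the next list. Of 15 marker genes of other cell types, the B cell gene Ms4a1 was marked in HSC, the T cell gene Lck, the liver gene Apoa1 and the myeloid genes Lyz2 and Mpo in MPP rep1, and Lyz2 in MPP rep2. Peaks at genes do not measure their RNA, and no RNA was measured in these libraries.

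The eIF2 group, which delivers the initiator tRNA and carries the stress control, held the most HSC-marked members. It has 15 genes, of which 5 were marked in HSC (33.3%, against 8.21% of all genes). In MPP rep1 10 were marked (66.7%, against 41.2%) and in MPP rep2 13 (86.7%, against 36.0%). Both MPP libraries marked 10, against 28.9% of all genes, and all 3 libraries marked 3, against 5.83%. eIF2B, the exchange factor, has 5 subunit genes. All 5 were marked in both MPP libraries, and Eif2b1, Eif2b4 and Eif2b5 were marked in HSC too. Eif2b5 encodes the catalytic subunit, and Eif2b1 and Eif2b4 encode regulatory ones.

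Eif2b1 had the highest gene-end fold of all members in MPP rep1. Its HSC peak, at chr5:124579001-124579272, had a fold of 5.28, a pileup of 8 fragments (95% interval 3.45 to 15.8) and q = 5.76e-04. The MPP peaks at the same place had folds of 9.70 and 9.48 in rep1 and rep2, with pileups of 42 (30.3 to 56.8) and 26 (17.0 to 38.1). The window is shared with an end of Gtf2h3, a subunit gene of the transcription factor TFIIH, and the peak cannot be given to either gene.

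Eif2b4 had folds of 5.61 in HSC, 5.83 in MPP rep1 and 8.38 in MPP rep2, with pileups of 8, 26 and 24 fragments. Its peak is shared with the neighbouring Snx17, a sorting nexin gene. Eif2b5 had folds of 5.61 in HSC, 5.94 in MPP rep1 and 7.25 in MPP rep2, with pileups of 8, 22 and 16, at a start that no other gene shares. Its HSC peak lies at chr16:20498633-20498904, with its summit 80 bp before the listed start. Eif2b2, another regulatory subunit gene, had no HSC peak and folds of 4.46 and 7.94 in MPP rep1 and MPP rep2. Eif2b3, which encodes the partner of the catalytic subunit, had no HSC peak and folds of 6.11 and 5.80.

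The genes of eIF2 itself differed in which libraries marked them. Eif2s1, the alpha subunit that the stress kinases phosphorylate, had a fold of 4.71 in HSC, the lowest of the 10 HSC-marked members, and 4.94 in MPP rep2. No peak was listed for it in MPP rep1. Its summits lay 289 bp before the start in HSC and 48 bp inside it in MPP rep2, in a window shared with Atp6v1d, a proton pump subunit gene. Eif2s2, the beta subunit, had folds of 4.55 and 7.56 in MPP rep1 and MPP rep2. The gamma subunit is encoded on both sex chromosomes, and Eif2s3x had a fold of 4.32 in MPP rep2 alone while Eif2s3y had no peak.

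Of the 4 eIF2 kinase genes 3 were marked in at least 1 library and 1 in none. Among all members 21.4% were marked in none, and among all genes 51.4%, so the kinases are like the members as a whole. Eif2ak3, which encodes PERK, the kinase of the unfolded protein response, had the highest gene-end fold of all members in HSC, 6.57 with 11 fragments (5.49 to 19.7) and q = 2.22e-06. In MPP rep2 it had a fold of 7.06 with 14 fragments, and MPP rep1 listed no peak at its ends. The HSC peak at chr6:70844119-70844458 has its summit 317 bp before the listed start. Eif2ak4, which encodes the amino acid sensor GCN2, had folds of 5.69 and 8.47 in MPP rep1 and MPP rep2 with 21 and 20 fragments. Eif2ak1, the haem-regulated kinase, had gene-end folds of 5.68 and 6.24 in MPP rep1 and MPP rep2. It also held the only peak inside a member, away from its ends, that all 3 libraries listed. That peak, at chr5:143893454-143893762 in HSC, lies 9164 bp from the nearer gene end, with folds of 6.83 in HSC, 6.53 in MPP rep1 and 8.27 in MPP rep2 and pileups of 11, 27 and 17. Eif2ak2, the double-stranded RNA kinase PKR, had no gene-end peak, and its nearest summits lay 15038 bp away in HSC, 15127 in MPP rep1 and 15120 in MPP rep2.

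Eif2a and Eif2d, which encode other carriers of initiator tRNA, had peaks in both MPP libraries and none in HSC. Eif2d had folds of 6.01 and 7.10 at summits 116 and 114 bp before its start in MPP rep1 and MPP rep2. The Eif2a peaks were at opposite ends of the gene, the far end in rep1 (fold 4.65) and the start shared with Serp1 in rep2 (fold 4.32), so the gene is counted in both libraries through different sites.

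The eIF3 group had few HSC peaks and many MPP peaks. Of 14 genes 1 was marked in HSC (7.14%, a share near the 8.21% of all genes). In MPP rep1 10 were marked (71.4%, against 41.2%), in MPP rep2 10 (71.4%, against 36.0%) and in both 8 (against 28.9%). Eif3a, which encodes the largest subunit, was the member with an HSC peak, at a fold of 5.32 with 10 fragments (4.80 to 18.4). Its MPP folds were 4.65 and 7.12, with 17 fragments in each replicate. The summits lay 17 bp inside the start in HSC, 20 bp in MPP rep1 and 33 bp in MPP rep2.

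The other eIF3 genes with peaks in both MPP libraries were Eif3b, Eif3c, Eif3d, Eif3h, Eif3j1, Eif3l and Eif3m. Eif3l had folds of 8.01 and 7.05 with 30 and 16 fragments, and summits 71 and 146 bp before the start. Eif3j1 had the highest gene-end fold of any member in MPP rep2, 10.1 with 25 fragments, and 5.16 with 19 fragments in rep1. Eif3b had folds of 2.87 and 5.93 at summits 764 and 798 bp before its start. Its rep1 peak was the weakest member peak of that library, with q = 3.31e-02. Eif3g (fold 6.97) and Eif3i (6.87) were marked in rep1 alone, at pileups of 32 and 28 fragments that exceed those of most members marked in both. Eif3f (6.12) and Eif3k (6.29) were marked in rep2 alone. Eif3e and Eif3j2 had no gene-end peak.

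The eIF4 group, which handles the mRNA cap, had 3 of 17 genes marked in HSC (17.6%, against 8.21% of all genes). In MPP rep1 10 were marked (58.8%, against 41.2%), in MPP rep2 9 (52.9%, against 36.0%) and in both 8 (against 28.9%). The HSC-marked genes were 2 of the 3 eIF4A helicase genes and the scaffold gene Eif4g2. Eif4a3, the helicase of the exon junction complex, had folds of 6.24 in HSC, 6.24 in MPP rep1 and 7.0 in MPP rep2, with 9, 24 and 18 fragments. Its HSC peak, at chr11:119299942-119300345, had q = 1.83e-05 and its summits lay 32, 7 and 17 bp before the start in the 3 libraries.

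Eif4a1, the main helicase of cap-dependent initiation, was marked in all 3 libraries but not through a common site. Its HSC peak at chr11:69672297-69672660 had a fold of 5.50 with 8 fragments and overlapped a start peak of MPP rep2 with a fold of 7.98 and 22 fragments. MPP rep1 listed no peak there. Its peaks lay 1145 bp inside the gene (fold 4.71) and at the other end beside Cd68 (fold 5.04), and the second was also listed in MPP rep2 with a fold of 7.58. The start window is shared with Senp3, a SUMO protease gene. Eif4a2, the third helicase gene, had folds of 3.46 and 3.64 at a pair of peaks in MPP rep1 alone.

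Eif4g2, a scaffold related to eIF4G that does not bind eIF4E, had a fold of 6.03 in HSC with 10 fragments (4.80 to 18.4) and q = 2.39e-05. The overlapping peaks had folds of 3.83 with 14 fragments in MPP rep1 and 7.61 with 19 in MPP rep2. Eif4g1, the classic scaffold, had no HSC peak. Its start had folds of 5.43 and 6.29 in MPP rep1 and MPP rep2, and its other end, which it shares with Fam131a, had 8.41 and 7.80. Eif4g3 had no peak at the outermost ends of the gene, but both MPP libraries listed a peak 108 and 151 bp before a start of transcription that lies inside that span, with folds of 4.43 and 5.39.

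Of 4 cap-binding genes 0 were marked in HSC, 1 in MPP rep1 and 2 in MPP rep2. Of 3 eIF4E binding protein genes 0, 2 and 2 were marked. The shares of all genes are 8.21%, 41.2% and 36.0%, so 0 in HSC is no departure from them. Eif4e, which binds the cap, had a fold of 4.34 in MPP rep2 alone, with 11 fragments. Eif4e2, a related protein that represses translation, had folds of 5.53 and 6.91 with 23 and 16 fragments. Eif4ebp1, the mTOR target that sequesters eIF4E, had folds of 7.88 and 5.77 with 36 and 20 fragments, and Eif4ebp2 had 4.76 and 6.98. The helicase cofactor Eif4h had 3.62 and 4.70 in MPP rep1 and MPP rep2, and Eif4b had 4.65 in rep1 alone. Eif4e1b, Eif4e3, Eif4ebp3, Eif4enif1 and the Eif4a3 copy Eif4a3l1 had no gene-end peak.

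The remaining 10 genes, of eIF1, eIF5 and eIF6, had 1 marked in HSC (10.0%, near the 8.21% of all genes). In MPP rep1 4 were marked (40.0%, just below the 41.2% of all genes) and in MPP rep2 7 (70.0%, against 36.0%). Both MPP libraries marked 3 of the 10, a share near the 28.9% of all genes. Eif5a, which helps the ribosome through difficult peptide bonds and carries the amino acid hypusine, had folds of 5.86 in HSC with 10 fragments and 5.90 in MPP rep2 with 17. Eif6, which keeps the large ribosomal subunit from joining too early, ranked first, by the worse of its ranks by fold in the MPP lists, among members that both MPP libraries marked without HSC. Its strongest peaks had folds of 7.57 and 8.83 with 38 and 28 fragments, and ranked 1318 of 29848 and 1499 of 19570. They lie in a window shared with BC029722 and Mmp24, while peaks at its other end, shared with no gene, had folds of 6.38 and 6.63. Eif1, which guards start codon choice, had folds of 4.65 and 6.08, and Eif5b, which joins the subunits, had 3.62 and 6.46 in a window shared with Txndc9. Eif5 and Eif5a2 had no gene-end peak.

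**Figure D2:**
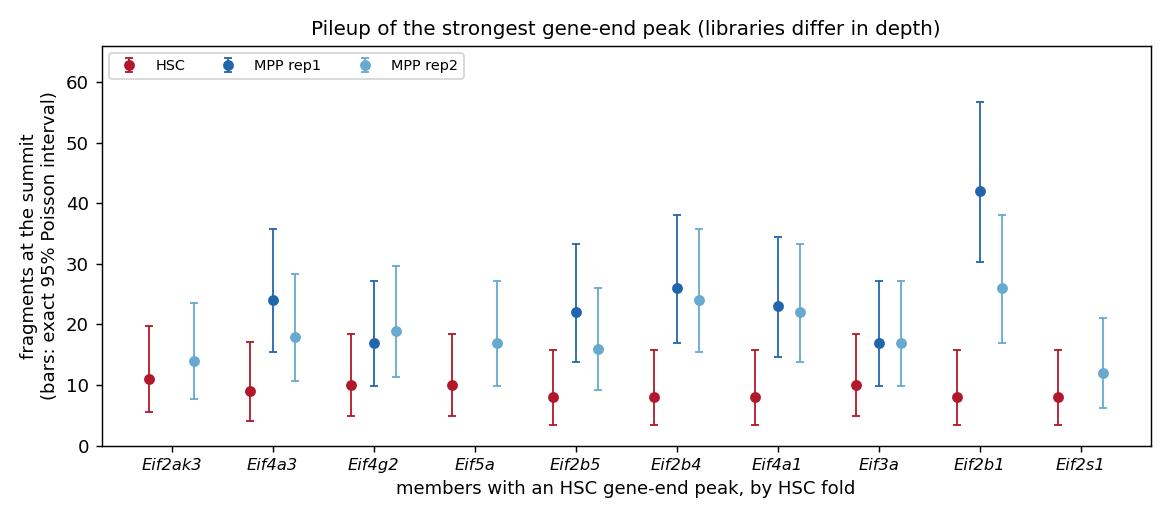
Fragments piled up at the strongest gene-end peak (vertical axis, with exact 95% Poisson intervals that cover counting error only) of the 10 members marked in HSC, for HSC, MPP rep1 and MPP rep2. HSC pileups are 8 to 11 fragments at every gene; Eif2ak3, Eif5a and Eif2s1 have no MPP rep1 peak, and the Eif4a1 point of MPP rep1 is at the gene's other end. The Eif4g2 point of MPP rep1 (fold 4.52, 17 fragments) is a peak with its summit 769 bp from the nearer gene end that does not overlap the HSC peak.

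As the plot of pileups shows, the intervals of the 10 HSC peaks overlapped each other at every pair of genes, so their order by pileup is not resolved at this depth. Sites, as well as genes, recurred between libraries. All 10 HSC peaks of members overlapped a peak of MPP rep2, against 76.1% of all HSC peaks, and 6 (60.0%) overlapped a peak of MPP rep1, against 70.8% of all HSC peaks. Tags in the names of the deposited lists number the MPP libraries in the opposite order to the labels, and HSC shares part of its tag with MPP rep1. What the tags stand for is not stated, and their part in these overlaps was not tested. Of 43 member peaks in MPP rep1, 14.0% overlapped an HSC peak and 72.1% a rep2 peak, against 9.75% and 44.9% of all peaks of that list. Of 44 in MPP rep2, 22.7% overlapped an HSC peak and 68.2% a rep1 peak, against 15.9% and 68.1%. Shares over all peaks include peaks away from gene ends, whereas the member peaks lie at gene ends, so the sets are unlike. Of 1797 genes with a gene-end peak in HSC, 1276 were marked in all 3 libraries and 382 in HSC and MPP rep2 only. The Eif2s1 overlap of HSC with MPP rep2 spans only chr12:78861966-78861973.

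Peaks sat at the start of the genes. For the 44 members whose strand is listed, 9 had a peak within 1 kb of the start in HSC (20.5%, against 8.06% of 17492 genes), 27 in MPP rep1 (61.4%, against 38.8%) and 33 in MPP rep2 (75.0%, against 35.3%). The other gene end had 0 in HSC (against 0.692%), 3 in MPP rep1 (6.82%, against 5.89%) and 2 in MPP rep2 (4.55%, against 3.82%), shares near those of all genes. Summits within 150 bp of a listed start made up 77.8% of 9 start peaks in HSC, 64.5% of 31 in MPP rep1 and 70.6% of 34 in MPP rep2, against 55.9%, 63.6% and 64.8% for all genes. Counted from the start, with negative values before it, the median summit lay at -32 bp in HSC, -16 bp in MPP rep1 and -48.5 bp in MPP rep2.

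**Figure D3:**
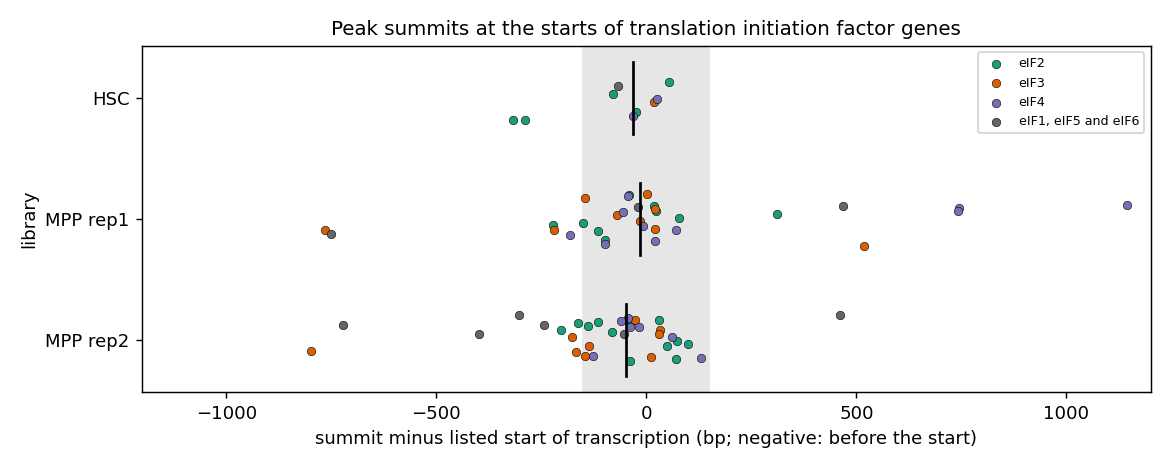
Distance of each gene-start peak summit from the nearest listed start of transcription (bp, negative before the start), for HSC, MPP rep1 and MPP rep2, coloured by group, with a black line at the median and grey over 150 bp on either side. Dots are spread vertically for legibility; 7 of 9 HSC summits, 20 of 31 in MPP rep1 and 24 of 34 in MPP rep2 lie in the grey band.

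Gene windows were shared with a neighbouring gene for 4 of 10 marked members in HSC (40.0%), 7 of 34 in MPP rep1 (20.6%) and 11 of 39 in MPP rep2 (28.2%), against 35.4%, 27.0% and 31.1% of all marked genes. In HSC the shared ones were Eif2b1, Eif2b4, Eif2s1 and Eif4a1. Counting only peaks at the end of no other gene left 6 members in HSC (10.7%, against 5.32% of all genes) and 4 in all 3 libraries (7.14%, against 3.74%). Of the 5 HSC-marked eIF2 genes 3 are among those that this removes.

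Scored over the whole gene, a peak lay in 9 members in HSC (16.1%, against 10.8% of all genes), 38 in MPP rep1 (67.9%, against 52.1%) and 38 in MPP rep2 (67.9%, against 44.6%). Peaks away from both ends were few, in 1 member in HSC, 13 in MPP rep1 and 10 in MPP rep2, which are 1.79%, 23.2% and 17.9% of members, against 4.89%, 26.4% and 18.6% of all genes. The members' median length was 18.5 kb, against 17.1 kb over all genes. A summit lay in the gene or within 50 kb of it for 27 members in HSC (48.2%, against 33.9%), 50 in MPP rep1 (89.3%, against 78.7%) and 52 in MPP rep2 (92.9%, against 72.7%).

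Of the 12 members with no gene-end peak, Eif4e3 held 4 internal peaks in MPP rep1 and 2 in MPP rep2, and Eif4g3 held 4 and 2. Eif5 had its nearest summits 27641 bp away in HSC, 13028 in MPP rep1 and 1881 in MPP rep2. For Eif4enif1, the eIF4E transporter, they were 13872, 3250 and 3281 bp away, and for Eif4ebp3 13012, 3931 and 13090. Eif5a2 had none within 50 kb in HSC and summits at 6524 and 6546 bp in MPP rep1 and MPP rep2, and Eif4e1b likewise at 9015 and 25334. Eif3e had a summit 46858 bp away in HSC, against 71604 and 71592 in MPP rep1 and MPP rep2. Eif2s3y, Eif3j2 and Eif4a3l1 had no summit within 50 kb in any library.

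Other translation genes, taken from lists chosen by function, were set beside the members. The shares of all genes to read them against are 8.21% in HSC, 41.2% in MPP rep1 and 36.0% in MPP rep2. Of 20 cytosolic aminoacyl-tRNA synthetase genes, which charge tRNAs, 6 were marked in HSC (30.0%), 16 in MPP rep1 (80.0%) and 19 in MPP rep2. Nars had the highest HSC fold among those in all 3 libraries, 7.12, with 7.87 and 14.6 in MPP rep1 and MPP rep2, and Farsb had 6.24, 3.88 and 5.93. Of 76 cytosolic ribosomal protein genes, HSC marked 18 (23.7%), and 57 had a peak in MPP rep1 (75.0%) and 64 in MPP rep2 (84.2%), with Rpl4 at folds of 7.89, 10.9 and 11.4. Of 21 genes of elongation and termination, 1 was marked in HSC (4.76%, below the 8.21% of all genes), 18 in MPP rep1 (85.7%) and 14 in MPP rep2 (66.7%). The HSC-marked gene was Mtrf1l, a mitochondrial release factor gene, with folds of 8.93, 3.62 and 7.91. Of 26 partners of initiation, such as poly(A)-binding proteins and eIF4E kinases, 1 was marked in HSC (3.85%, also below the share of all genes). In MPP rep1 16 were marked (61.5%) and in MPP rep2 18 (69.2%). The HSC-marked partner was Dhx29, a helicase of structured leaders, with folds of 4.99, 4.13 and 5.19. Ncbp2, a nuclear cap-binding gene, had 7.78 and 8.48 in MPP rep1 and MPP rep2 alone. The members' HSC share of 17.9% lay between these lists, and no list was tested against another.

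**Figure D4:**
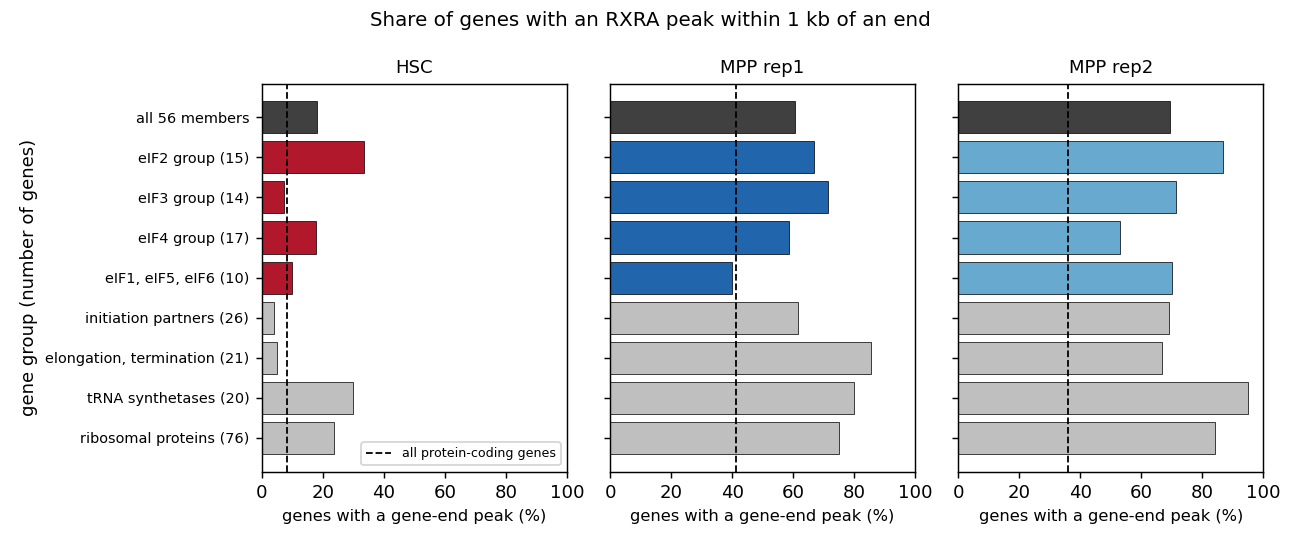
Percent of genes with a peak within 1 kb of an end (horizontal axis, 0 to 100) for the 56 members (dark grey), their 4 groups (coloured) and 4 other translation lists (light grey), in HSC, MPP rep1 and MPP rep2, with the number of genes in brackets and a dashed line at the share of all protein-coding genes. In HSC the eIF2 group reaches 33.3% and eIF3 7.14%, against 8.21% of all genes; in MPP rep2 every group and list lies right of the line at 36.0%.

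The HSC calls at members rest on peaks of few fragments. The weakest q in the deposited list is 0.0995, and keeping only peaks with q at or below 1e-05 left Eif2ak3 as the single HSC-marked member (1.79%, against 2.00% of all genes) and 0 members in all 3 libraries (against 1.01%). Under the same threshold MPP rep1 kept 28 of its 34 members and MPP rep2 kept 29 of its 39. Holding each list to its 4047 peaks of highest fold left 8 members marked in MPP rep1 (14.3%, against 8.83%) and 11 in MPP rep2 (19.6%, against 10.1%), beside the 10 in HSC (17.9%, against 8.21%). Eif2b1 was then the only member marked in all 3 libraries.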

How the data were processed

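RXRA CUT&RUN was measured in 3 libraries, 1 of HSC and 2 of MPP, with 1 deposited peak list each, so the replicates were called separately. Each list was assigned to its library by the series' sample records, and replicate numbers are those of the labels. Per the submitters' processing notes, which list mm10 as build, MACS2 2.1.4, Bowtie2 2.3.4.1, cutadapt 1.9.1 and Trim Galore 0.4.2 were named as tools, without roles. Settings, duplicate handling and any control library were not given in the sources used here. Fold enrichment, as the authors deposited it, is a ratio, summit pileup over local background, with 1 added to each. Used as given were the authors' deposited −log10 p-value and −log10 q-value. The deposited score is 10 times the −log10 q as a whole number and was not used further. The deposited summit offset gave each peak's position.

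Pileup and local background were solved from each peak's fold (pileup plus 1 over background plus 1) and Poisson p, and the pileup came out whole, to a −log10 p tolerance of 0.001, for 99.98% of HSC peaks and at least as many in MPP. The solution was tested on simulated data, where 500 of 500 pileups were recovered. Intervals are exact Poisson at 95% and cover counting error only. Genes, and promoters with strand, came from RefSeq tables of GRCm38.p6, the mm10 assembly. Strand was listed for 44 of 56 members. The genome sequence was not used here. A gene was marked where a peak overlapped the 1 kb around either end by at least 1 bp. Alternatives were windows of 500 bp and 5 kb, q at or below 1e-05, equal list lengths, 50% of the peak or its summit in the window, the top 1% of peaks by fold left out, starts only, unshared peaks, factor subunits only and each MPP library left out.

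Values are given in every library for members marked in all 3 libraries, for the others marked in HSC, and for the 5 of best worse rank among those marked in MPP only (Eif6, Eif4g1, Eif2d, Eif3l and Eif2ak4). Other members with values were chosen after those were seen. Up to 4 genes a list were eligible from the pathway lists, by number of libraries and HSC fold, and 1 listed symbol, Mtrfr, was not found in the table. The members and lists were chosen with earlier results of these data known. Python 3.11.15, numpy 2.4.6, pandas 2.3.3 and scipy 1.17.1 were used.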

Additional observations from a re-analysis of the deposited data

How the results depend on the processing

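Of 102 alternative counts, 79 stayed within 1.5 times the main value and 23 moved further. Some could not move by construction, such as HSC at equal list length, which is the unchanged HSC list. With q at or below 1e-05, which keeps 1180 HSC peaks, HSC marked 1 member at a gene end, all 3 libraries 0, the whole gene 1 in HSC, the 50 kb range 7 in HSC, and HSC counts were 1 for eIF2, 0 for eIF3 and 0 for eIF4. With each list held to 4047 peaks, gene-end counts were 8 in MPP rep1, 11 in MPP rep2, 1 in all 3 and 3 in both MPP libraries. Under that setting MPP rep1 and MPP rep2 gave 11 and 11 over the whole gene, 26 and 27 within 50 kb, 1 and 6 for eIF2, 3 and 1 for eIF3, and 3 and 3 for eIF4. With only unshared peaks, HSC marked 6 and all 3 libraries 4. These settings keep fewer peaks by construction. Leaving out an MPP library gave 7 to 10 members marked in all the libraries left and 34 to 39 in the MPP library left. In 74 of 77 counts over all members, the members' share stayed above that of all genes. The 77 include the main values and settings that repeat them, so they are not separate checks. The exceptions, all at q of 1e-05, were HSC gene ends (1.79% against 2.00%), all 3 libraries (0% against 1.01%) and the HSC whole gene (1.79% against 2.92%). The eIF2 share in MPP rep1 and the eIF3 share in MPP rep2 were also below all genes at equal list length (6.67% against 8.83%, and 7.14% against 10.1%). No paired analysis was possible because there is 1 HSC library and its labels give no replicate number. With 8 to 11 fragments at HSC member peaks, an unmarked member is one not detected in that library. Depth, cell number and an absence of binding cannot be told apart.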

Other observations

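The RefSeq table also lists 12 pseudogenes or noncoding genes with Eif names that are not among the members. None of them had a gene-end peak in HSC, and 2 had one in each MPP library. The 2 were Eif2s3x-ps1 and Eif4a-ps4, the same pair in both replicates. The shares of protein-coding genes are 8.21% in HSC, 41.2% in MPP rep1 and 36.0% in MPP rep2, so 0 of 12 in HSC is no departure. The shares over all pseudogenes and noncoding genes were not computed.

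Eif4g3 shows what a rule on gene ends can miss. Its span in the table begins well before the start of transcription that both MPP libraries mark, so it is counted as unmarked within 1 kb of an end, and a window of 5 kb adds it in both MPP libraries. The same wider window adds Eif4enif1 in both MPP libraries, Eif5 in MPP rep2, and Eif1a, Eif3k, Eif4ebp3 and Eif5a in MPP rep1, and adds no member in HSC. With it Eif5a is marked in all 3 libraries.

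Internal peaks that overlapped between both MPP libraries, with no HSC counterpart, were listed in Eif2b3, Eif3k, Eif4b, Eif4e3, Eif4g1, Eif4g3 and Eif5a, none within 1 kb of an outermost end of the gene. Those of Eif4g3 and Eif5a lie close to a listed start of transcription inside the span, and the Eif5a summits are 894 and 866 bp inside it in MPP rep1 and MPP rep2. Folds in MPP rep1 and MPP rep2 were 7.24 and 5.93 in Eif4b, 6.57 and 4.81 in Eif4g1, and 5.94 and 7.91 in Eif5a.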
